A study of Mus musculus with 2 samples.

Results

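Neurog3-high endocrine progenitors, the epithelial cells of the embryonic pancreas that carry RNA for the transcription factor Neurog3, were described in single-cell RNA data from mouse pancreas at embryonic day 14.5. A barcode counted as a member when it had at least 3000 unique molecular identifiers (UMIs, tags that count captured RNA molecules), under 10% mitochondrially encoded UMIs, and at least 3 Neurog3 UMIs. It also had at most 1 UMI of the acinar factors Rbpjl and Ptf1a together, under 20 UMIs per 10000 of the hormone genes Gcg, Ins1 and Ins2, and under 5 per 10000 of the collagen genes Col1a1, Col1a2 and Col3a1. These limits found 1662 members among 46917 barcodes: 592 in the Null library, out of 7742 that passed the UMI and mitochondrial limits, and 1070 in the Control library, out of 14367. The Null library pooled 3 pancreata from 3 litters of Fgf9 -/- embryos, in which a LacZ cassette sits in both copies of the Fgf9 locus. The Control library held 8 pancreata of the genotypes Fgf9 +/+ and Fgf9 +/-, again from 3 litters and pooled, so wild-type and heterozygous cells were not kept apart. Both groups were on a C57BL/6J background. Each group was 1 pooled library, so no difference between them has a replicate check, no p-value is given, and every interval below covers counting error only.

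Neurog3 is a basic helix-loop-helix transcription factor that commits cells of the pancreatic trunk epithelium to the endocrine lineage. Its expression is transient: bipotent trunk cells marked by Sox9 and Spp1 switch it on, Notch signalling holds it down in their neighbours, and the cells then leave the cycle, lose Neurog3, express Fev and the chromogranins, and go on to make islet hormones. Fgf9 is a secreted fibroblast growth factor, and the study asks what its loss does to the developing pancreas.

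The promoters of the 4 genes that marked the members are shown because Neurog3 and Neurod2 are both basic helix-loop-helix factors, whose binding motif is the E-box, CANNTG. The stretches, of 250, 197, 200 and 247 bases for Neurog3, Btbd17, Gadd45a and Neurod2, lie directly upstream of the gene in the GENCODE annotation and come from RefSeq (build GRCm38.p6), 5′ to 3′ on the strand of the gene, with E-boxes in capitals. Neurog3 (chr10:62132840-62133089, plus strand) had 1 E-box, CAGCTG. Btbd17 (chr11:114795946-114796142, minus strand) had none. Gadd45a (chr6:67037458-67037657, minus strand) had 1, CAAATG. Neurod2 (chr11:98329649-98329895, minus strand) had 3, the first of them CAGATG.
Neurog3: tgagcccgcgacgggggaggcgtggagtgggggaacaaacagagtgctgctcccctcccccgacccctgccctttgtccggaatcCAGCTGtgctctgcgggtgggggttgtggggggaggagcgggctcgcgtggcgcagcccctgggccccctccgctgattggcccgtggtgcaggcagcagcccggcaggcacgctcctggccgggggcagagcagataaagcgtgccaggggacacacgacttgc
Btbd17: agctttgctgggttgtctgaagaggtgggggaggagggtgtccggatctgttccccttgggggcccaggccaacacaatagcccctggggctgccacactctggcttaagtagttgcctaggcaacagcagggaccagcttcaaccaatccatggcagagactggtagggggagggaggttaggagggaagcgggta
Gadd45a: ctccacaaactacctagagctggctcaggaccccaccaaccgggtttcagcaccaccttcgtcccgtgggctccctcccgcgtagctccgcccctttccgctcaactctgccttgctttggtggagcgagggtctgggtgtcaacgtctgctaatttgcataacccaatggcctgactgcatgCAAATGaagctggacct
Neurod2: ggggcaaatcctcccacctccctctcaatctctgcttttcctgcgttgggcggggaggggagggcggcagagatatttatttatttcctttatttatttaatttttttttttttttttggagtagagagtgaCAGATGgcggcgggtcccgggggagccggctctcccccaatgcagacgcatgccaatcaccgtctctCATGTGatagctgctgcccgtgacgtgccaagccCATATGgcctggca
Of 32851 RefSeq promoters, 66.2% held at least 1 CANNTG on either strand in the 250 bases before the start. In windows cut to the lengths shown for Btbd17 and Gadd45a the share was 58.6% and 59.0%. CAGATG, or CATCTG on the other strand, stood in 14.4% of the 250-base windows. CAGATG is itself one of the CANNTG letters, and a match describes the sequence, not a bound site.

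The members' UMIs summed to 13303947 in the Null library and 16850083 in the Control library, with medians of 20474 and 13989.5 UMIs and of 5011 and 4044 genes per cell. Null barcodes were the deeper ones, so a fixed minimum of 3 Neurog3 UMIs admitted Null cells with a lower Neurog3 share than Control cells. Levels are given as CPM, UMIs per 1000000 of the members' summed UMIs without haemoglobin and mitochondrially encoded genes, and are compared between cells or libraries, not between genes. Of 180 barcode sequences present in both libraries none was a member in both, and 14 members had a sequence that the other library also held. A doublet caller, whose threshold differed between the libraries, marked 14 Null members (2.36%) and 62 Control members (5.79%). Fgf9 itself had 3 UMIs in Null members, 0.232 CPM (0.0478 to 0.678), and 83 UMIs in Control members, 5.10 CPM (4.07 to 6.33). The 3′ tag may lie outside the part of the gene that the cassette disrupts, so the UMIs left in Null cells check nothing about the allele. Xist stood at 0.232 CPM in Null members and 509 CPM in Control members, so female cells were seen in the Control library and hardly in the Null one, and sex and genotype cannot be told apart.

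The label was set beside 3 markers that the selection did not count, though they were chosen with earlier results of these data known. Btbd17 stood at 271 CPM (262 to 281) in Null members and 312 CPM (304 to 321) in Control members, against 3.14 and 4.67 CPM in trunk cells (no Neurog3 or Fev UMI, at least 2 Sox9 and 2 Epcam UMIs). Gadd45a, a stress and growth-arrest gene, stood at 418 and 456 CPM in members and at 16.8 and 16.2 CPM in trunk cells. Neurod2 stood at 106 and 112 CPM in members and at 0.393 and 0.530 CPM in trunk cells. All 3 markers thus stood higher in members than in trunk cells of both libraries, and the label was kept for the members as a whole. This is a description and no independent check of the label. After each cell was thinned to 3000 UMIs, Btbd17 was seen in 45.8% of Null and 52.2% of Control members (70.9% and 76.3% unthinned), Gadd45a in 47.5% and 52.7% (71.3% and 75.6%), and Neurod2 in 24.2% and 27.5% (47.0% and 51.5%). The same thinned shares in mesenchymal barcodes, which should lack these genes apart from Gadd45a, were 0.490% and 1.05% for Btbd17, 3.06% and 5.05% for Gadd45a and 0.245% and 0.421% for Neurod2, at median depths of 18712 and 9553 UMIs.

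Markers of neighbouring epithelial states were high in members, those of non-epithelial cells were low, and the acinar, mesenchymal and erythroid ones were higher in the Control library. The 4 endocrine progenitor markers summed to 2283 CPM in Null and 2483 CPM in Control members. Neurog3, which the selection required, held 1487 and 1602 CPM of these sums. Fev-stage markers (Fev, Chgb, Chga, Cryba2 and Vwa5b2) summed to 1990 and 2310 CPM, and the trunk or ductal markers to 3126 and 2306 CPM. The 6 acinar or tip markers summed to 918 and 1477 CPM, of which the chymotrypsinogen gene Ctrb1 held 707 and 1085 CPM. Ctrb1 stood higher in mesenchymal barcodes, at 1029 and 1576 CPM, so its level in the members is not read as expression. The 6 mesenchymal markers summed to 34.5 and 60.3 CPM, the mesothelial ones to 3.01 and 5.23 CPM, the endothelial ones to 9.43 and 8.61 CPM, the leukocyte ones to 6.34 and 11.01 CPM, those of neural crest and neurons to 61.4 and 66.8 CPM and the erythroid ones to 2.40 and 14.8 CPM. No marker of these sets was at 0. The selection limited Rbpjl and Ptf1a of the acinar set and the 3 collagens of the mesenchymal set, so it partly set those sums.

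Neurog3 levels spread widely within the members. Null members had from 0.392 to 58.7 Neurog3 UMIs per 10000 with a median of 10.95, and Control members from 0.694 to 69.2 with a median of 15.6. At least 10 per 10000 was reached by 52.2% of Null and 62.6% of Control members, so the lower end was fuller in the Null library. At the edge of the selection, 53 Null and 100 Control members had exactly 3 Neurog3 UMIs, and 104 and 202 barcodes that met the other limits had exactly 2. Those with exactly 3 carried Insm1 at 60.5 and 78.0 CPM and Sox9 at 823 and 733 CPM, and those with exactly 2 carried Insm1 at 30.0 and 76.0 CPM and Sox9 at 915 and 693 CPM. Both edges were thus far from the members as a whole, which had Insm1 at 297 and 347 CPM and Sox9 at 454 and 359 CPM. The 3 markers were low at both edges too. With exactly 3 Neurog3 UMIs Btbd17 stood at 29.9 and 39.3 CPM, Gadd45a at 29.9 and 31.0 CPM and Neurod2 at 3.14 and 3.32 CPM. With exactly 2 they stood at 13.6 and 34.0 CPM, 26.8 and 29.2 CPM, and 5.36 and 7.45 CPM.

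Ranking the members of each library by Neurog3 UMIs per 10000 and dividing them into 3 equal groups (tertiles) ordered a large part of the endocrine program. Of 25 commitment transcription factors with at least 10 CPM on average, 15 stood higher from the lower to the middle to the upper tertile in both libraries, 7 were highest in the middle tertile in both, and none was lower from tertile to tertile in both. Insm1, a zinc-finger factor of endocrine differentiation, stood at 70.0, 329 and 575 CPM in the lower, middle and upper tertiles of Null members, and at 132, 421 and 572 CPM in those of Control members. Pax4, a homeobox factor of the beta and delta cell lineages, stood at 16.7, 93.7 and 164 CPM in Null tertiles and at 38.1, 142 and 198 CPM in Control tertiles. Gadd45a stood at 32.9, 433 and 930 CPM in Null tertiles and at 92.7, 526 and 894 CPM in Control tertiles. These genes were steeply graded with Neurog3 in both libraries, and their lower tertiles differed most between libraries. The lower tertiles covered different ranges, 0.392 to 4.43 Neurog3 UMIs per 10000 in Null and 0.694 to 7.96 in Control members. The middle tertiles covered 4.44 to 22.9 in Null and 8.03 to 22.5 in Control members, and the upper tertiles 23.0 to 58.7 and 22.5 to 69.2.

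**Figure D1:**
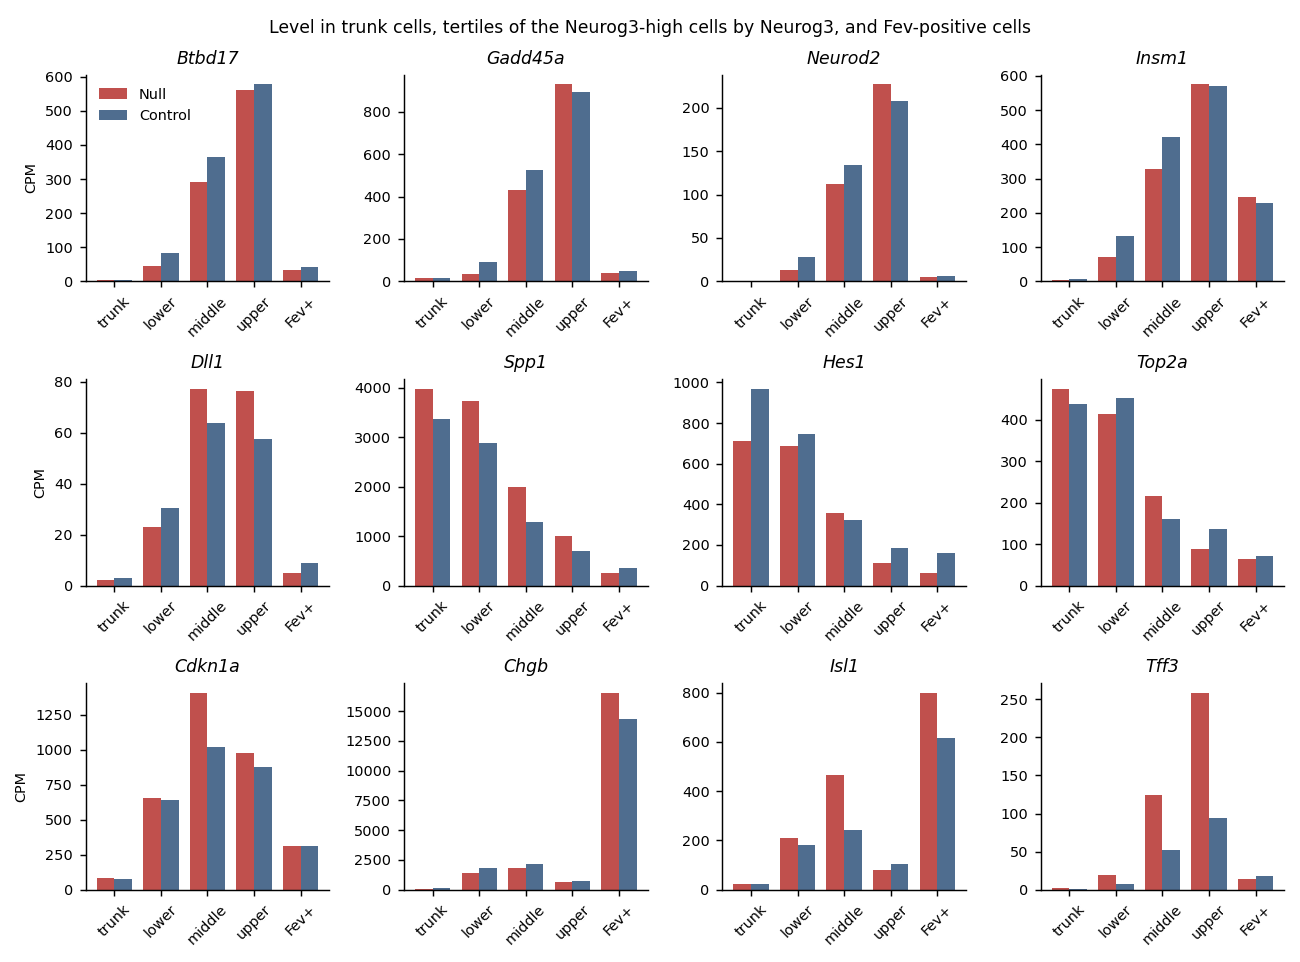
Level (CPM, linear axes from 0) of 12 genes in trunk cells, in the lower, middle and upper tertiles of the Neurog3-high cells by Neurog3, and in Fev-positive cells, with Null bars left of Control bars. Btbd17, Gadd45a and Neurod2 peaked in the upper tertile (560, 930 and 227 CPM in Null, 578, 894 and 208 CPM in Control), Spp1 was lower in each later group than in trunk cells, Chgb was highest in Fev-positive cells, and Tff3 was higher in Null bars in each tertile.

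Genes of the trunk ran the other way. Of 22 trunk and ductal genes, 13 were lower from tertile to tertile in both libraries and 2 were higher. Spp1, a secreted glycoprotein of the ductal epithelium, stood at 3724, 1982 and 999 CPM in Null tertiles and at 2877, 1292 and 692 CPM in Control tertiles. Hes1, the Notch-driven repressor of Neurog3, stood at 687, 355 and 112 CPM in Null tertiles and at 747, 322 and 184 CPM in Control tertiles. Of 30 G2/M genes, 27 were lower from tertile to tertile in both libraries, with medians of -2.29 in Null and -1.75 in Control for the log2 ratio of the upper over the lower tertile. Cdkn1a, an inhibitor of the cyclin-dependent kinases, was instead highest in the middle tertile, at 657, 1407 and 980 CPM in Null and at 642, 1018 and 878 CPM in Control tertiles. Dll1, a Notch ligand, stood at 23.1, 77.3 and 76.2 CPM in Null tertiles and at 30.3, 63.8 and 57.4 CPM in Control tertiles.

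The lowest Neurog3 levels held cells of both ends of the passage. Genes of the Fev stage were highest in the middle tertile in both libraries for 10 of 14 genes, with Isl1 at 209, 466 and 80.1 CPM in Null and at 183, 242 and 103 CPM in Control tertiles. Members were therefore also divided, by a limit set after the data were seen, at 20 UMIs per 10000 of Sox9, Spp1 and Hes1 together (trunk-gene-rich) and at 20 per 10000 of Fev, Chga, Chgb, Pax6 and Isl1 together (late-gene-rich). Trunk-gene-rich cells were 47.3% (43.2 to 51.4) of Null and 35.7% (32.8 to 38.6) of Control members, cells low for both scores 30.6% (26.9 to 34.5) and 40.3% (37.3 to 43.3), and late-gene-rich cells 21.5% (18.2 to 24.98) and 22.4% (19.96 to 25.05). Only 4 Null cells (0.676%) and 17 Control cells (1.59%) passed both limits, while 51 and 114 cells lay between 15 and 25 per 10000 on either score. Median Neurog3 was 3.39 and 4.64 per 10000 in trunk-gene-rich cells, 29.7 and 26.2 in cells low for both, and 8.30 and 11.7 in late-gene-rich cells. In both libraries Neurog3 was thus highest in the cells between the ranges. The fuller trunk-gene-rich range of the Null library goes together with its greater depth, whose part in the result was not tested.

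**Figure D2:**
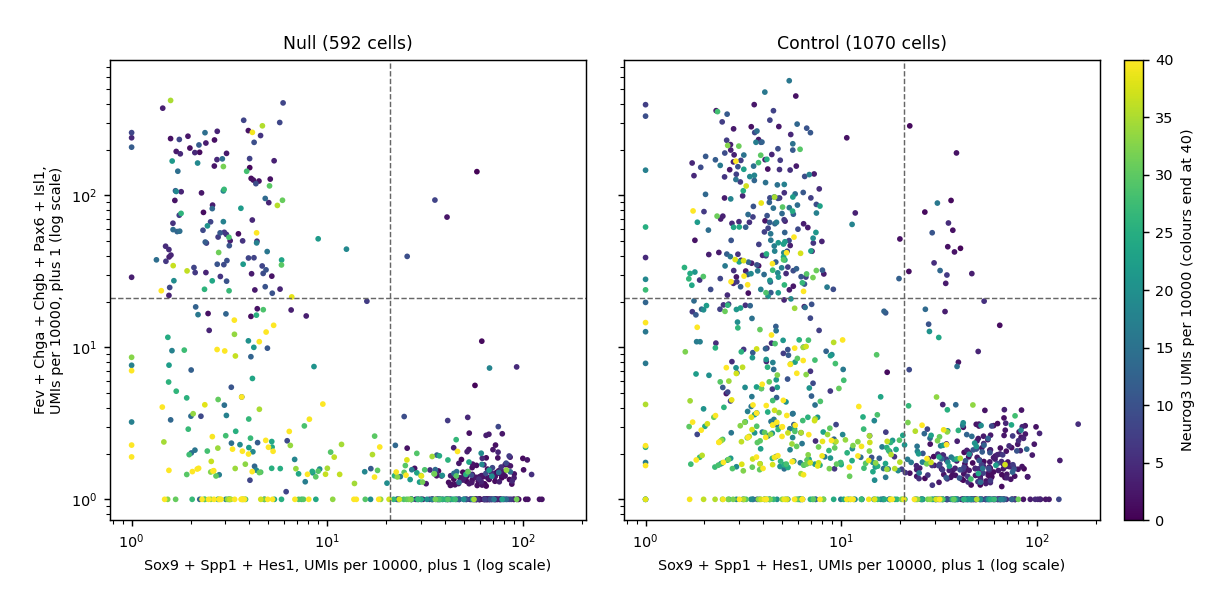
Each point is 1 Neurog3-high cell, Null on the left (592 cells) and Control on the right (1070 cells), placed by its trunk score (x, Sox9, Spp1 and Hes1) and late score (y, Fev, Chga, Chgb, Pax6 and Isl1), both as UMIs per 10000 plus 1 on log scales, and coloured by Neurog3 UMIs per 10000. Dashed lines mark the limits of 20 per 10000; cells low on both scores carry the highest Neurog3, and 4 Null and 17 Control cells pass both limits.

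Set against trunk cells, which the selection excluded by their Neurog3 count, members of both libraries carried higher levels of the endocrine commitment factors. Past a 2-fold difference (log2 ratio of 1) in both libraries, 601 of 8843 genes (6.8%) were higher and 229 (2.59%) lower in members. Since the cells were chosen by Neurog3, these counts are a description and carry no test. Of 25 commitment factors 22 were higher past that fold and none was lower, with median log2 ratios of 3.34 in Null and 3.22 in Control. By the rank of the smaller ratio, the leading genes after Neurod2 were Epb42 (56.0 CPM in Null members against 0.131 CPM in Null trunk cells, and 61.7 against 0.404 CPM in Control), Pax4, Lhx1, Rbfox3, Ppp1r14a, the long noncoding RNA Miat, Btbd17, Myt1, Insm1, Mfng, Tff3, Cbfa2t3, Rfx6 and Tubb3. Mfng, a glycosyltransferase that modifies Notch receptors, stood at 87.9 CPM in Null members against 1.26 CPM in Null trunk cells, and at 91.1 against 1.72 CPM in Control cells. Lhx1, a LIM homeobox factor, stood at 112 against 1.07 CPM in Null and 178 against 1.89 CPM in Control cells. Tubb3, a neuronal tubulin, stood at 98.2 against 2.15 CPM in Null and 115 against 2.65 CPM in Control cells.

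The genes lowest in members relative to trunk cells were Sst, Hpgd, Fmo2, Ccnd1, Klf6, Hist1h1b, Hspb8, Cldn10, Ccn1 and BC006965. The Sst level of trunk cells, 94.1 CPM in Null and 27.1 CPM in Control, lay in few cells, with at least 3 Sst UMIs in 0.673% and 0.292% of them. Ccnd1, the D-type cyclin that opens G1, stood at 102 CPM in Null members against 413 CPM in Null trunk cells, and at 151 against 546 CPM in Control cells. Hist1h1b, a replication-dependent linker histone, stood at 95.3 against 468 CPM in Null and 149 against 499 CPM in Control cells. Cldn10, a tight-junction claudin, stood at 49.6 against 176 CPM in Null and 75.1 against 241 CPM in Control cells. Of 25 S phase genes 8 were lower past 2-fold in both libraries and none was higher, and of 30 G2/M genes none passed 2-fold either way, with medians of -0.74 in Null and -0.53 in Control.

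Set against Fev-positive cells (at least 3 Fev and at most 2 Neurog3 UMIs, 236 Null and 367 Control barcodes), 587 of 8974 genes (6.54%) were higher and 559 (6.23%) lower in members past 2-fold in both libraries. The leading higher genes were Rasgrp3, Ppp1r14a, Rsad2, Neurod2, Tmem171, Grin3a, Epb42, Nfix, Enc1 and Gadd45a. Rasgrp3, a guanine nucleotide exchange factor for Ras-family proteins, stood at 128 CPM in Null members against 2.82 CPM in Null Fev-positive cells, and at 101 against 2.25 CPM in Control cells. Nfix, a nuclear factor I transcription factor, stood at 156 against 6.07 CPM in Null and 112 against 10.0 CPM in Control cells. The leading lower genes were Sst, Gast, A2ml1, Peg10, Cltrn, Pcsk2, Ppy, Sphkap, Filip1 and Kcnmb2. Pcsk2, a prohormone convertase of the secretory granule, stood at 47.6 against 690 CPM in Null and 42.0 against 547 CPM in Control cells. All 30 G2/M genes were higher past 2-fold in members than in Fev-positive cells in both libraries, 18 of 22 secretory granule genes were lower and none was higher, and 8 of 13 Notch pathway genes were higher and none was lower.

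The question of how many cells entered this state was addressed by the members' share. With a denominator of Epcam-positive barcodes (at least 2 Epcam UMIs and low collagen), Epcam-positive members were 9.99% (9.23 to 10.8) of the Null and 10.9% (10.3 to 11.6) of the Control library, a ratio of 0.913. Of all barcodes passing the UMI and mitochondrial limits they were 7.65% (7.06 to 8.26) and 7.45% (7.02 to 7.89), a ratio of 1.03. The direction thus turned with the denominator, and both differences were small. When Neurog3 had to reach 10 per 10000, which is less tied to depth, the shares of Epcam-positive barcodes were 5.20% and 6.82%, a ratio of 0.763. Trunk cells were 22.6% and 21.3% and Fev-positive cells 3.94% and 3.63% of Epcam-positive barcodes. The sort for live cells, its size gate and the limit on UMIs all bear on these shares, and the acinar limit removed 41 of 648 Null and 277 of 1427 Control barcodes with at least 3 Neurog3 UMIs.

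Within the members, few genes differed strongly between the libraries. Of 8872 genes with a mean of at least 10 CPM, 29 were higher in Null by a log2 ratio of 1 or more (0.327%) and 18 were lower by as much (0.203%). The ratio lay above 0 for 5562 of the 8872 genes (62.7%). The counting interval lay above 0 for 30.3% of genes and below 0 for 13.7%, and the median log2 ratio over all genes was 0.07. These shares are the background for the gene groups below, whose log2 ratios are Null over Control throughout.

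Trunk and ductal genes were higher in Null members as a group. Of 22 genes 21 had a ratio above 0 (centring on the median gene turned 2 of them below it) and 19 an interval above 0, with a median of 0.32 and 3 genes past the 2-fold limit. Dcdc2a, a doublecortin-domain protein of ductal cilia, had 145 CPM in Null and 68.5 CPM in Control members, a log2 ratio of 1.08 (0.97 to 1.19). Pkhd1, the gene of recessive polycystic kidney disease, had 29.3 and 13.8 CPM, a ratio of 1.09 (0.85 to 1.33). Bicc1, an RNA-binding protein of tubular epithelia, had 284 and 166 CPM, a ratio of 0.77 (0.70 to 0.84). Onecut1, a homeobox factor, had 166 and 110 CPM, a ratio of 0.59 (0.50 to 0.68) that turned to -0.39 with Neurog3 of at least 10 per 10000, and in the upper tertile it had 13.8 CPM in Null and 20.1 CPM in Control members. Spp1 had 2390 and 1762 CPM, a ratio of 0.44, and Sox9 had 454 and 359 CPM, a ratio of 0.34. Onecut2, of the same family, had 16.2 and 7.07 CPM, a ratio of 1.19 (0.86 to 1.53) that was 0.58 under that limit, and stood at 50.7 and 0.631 CPM in trunk cells.

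The trunk difference was uneven over the members. It was 0.34 in the lower, 0.50 in the middle and 0.17 in the upper tertile by Neurog3, with 20, 21 and 18 of 22 genes above 0, while of all genes 58.8%, 59.4% and 58.5% were above 0. In the upper tertile Dcdc2a had 11.1 CPM in Null and 8.75 CPM in Control members, a ratio of 0.35 (-0.31 to 1.01), and Pkhd1 had 8.23 and 6.405 CPM, a ratio of 0.36 (-0.41 to 1.14). Trunk cells outside the members had a list median of 0.36. With Neurog3 of at least 10 per 10000 the members' median was 0.17, Dcdc2a stood at 0.63 and Pkhd1 at 0.49. By range, where the trunk score itself uses Sox9 and Spp1, the list median was 0.35 in trunk-gene-rich members, with 21 of 22 genes above 0. It was -0.08 in those low for both scores (9 of 22) and 0.02 in late-gene-rich members (10 of 20). Of all genes 5435 of 8855, 4934 of 8856 and 4886 of 8709 were above 0 in these ranges. The larger share of trunk-gene-rich cells and lower Neurog3 of Null members thus moved together with this group. More such cells and more RNA per cell cannot be told apart in the summed counts.

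Endocrine commitment factors differed little as a group. Of 25 genes 6 had an interval above 0 and 10 below, the median was -0.02, and none passed the 2-fold limit. Among the higher ones, Sox11, an SRY-related factor, had 162 CPM in Null and 112 CPM in Control members, a log2 ratio of 0.54 (0.45 to 0.63), and Isl1 had 251 and 178 CPM, a ratio of 0.50 (0.43 to 0.57). Sox4 had 1389 and 1243 CPM, a ratio of 0.16 (0.13 to 0.19). Pax4 was lowest, with 83.5 and 116 CPM, a ratio of -0.47 (-0.58 to -0.36), and Pax6 had 75.3 and 101 CPM, a ratio of -0.43 (-0.54 to -0.31). Neurod1, the factor downstream of Neurog3, had 255 and 317 CPM, a ratio of -0.31 (-0.38 to -0.25), and Runx1t1 had 173 and 228 CPM, a ratio of -0.40 (-0.47 to -0.32).

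The small group median hid a gradient with Neurog3. In the lower tertile 22 of 25 commitment factors were lower in Null members, with a median of -0.46, where the Null cells also carried less Neurog3. In the middle tertile 17 of 25 were lower, with a median of -0.04, and in the upper tertile 11 of 25 were lower, with a median of 0.02. Pax4 kept its direction, at -1.19 (-1.56 to -0.83), -0.60 (-0.78 to -0.42) and -0.27 (-0.42 to -0.12) in the lower, middle and upper tertile. With Neurog3 of at least 10 per 10000 the group's median was 0.11, above 0, and Pax4 stood at -0.27.

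**Figure D3:**
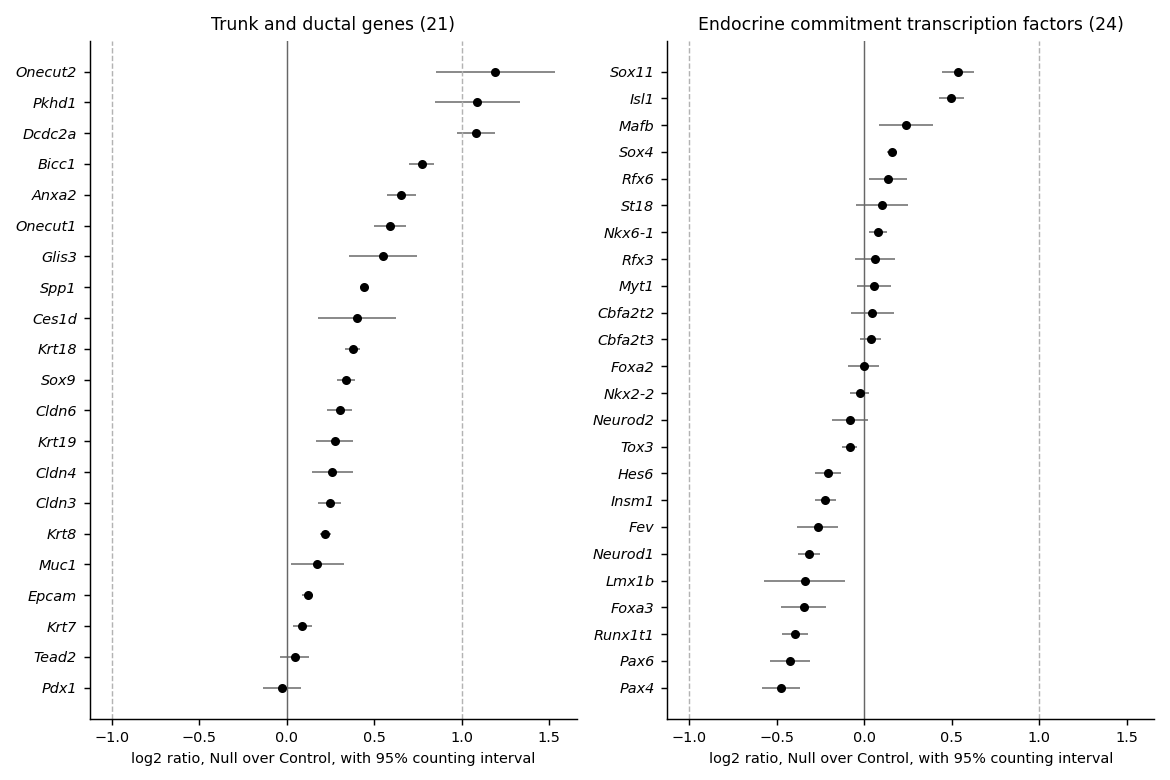
Log2 ratio of Null over Control CPM in the Neurog3-high cells, with 95% counting intervals as bars, for 21 trunk and ductal genes (left) and 24 endocrine commitment factors (right); dashed lines mark 2-fold. On the left 20 of the 21 genes drawn lie above 0 and 3 past 2-fold, and on the right 11 of 24 lie above 0 and none past 2-fold.

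Notch genes showed no common direction. Of 14 genes 5 had an interval above 0 and 5 below, with a median of 0.06. Dll1 had 55.3 CPM in Null and 48.4 CPM in Control members, a log2 ratio of 0.19 (0.04 to 0.34), and the receptor Notch2 had 23.0 and 16.1 CPM, a ratio of 0.52 (0.27 to 0.76). Dlk1, an imprinted noncanonical ligand, had 111 and 196 CPM, a ratio of -0.81 (-0.90 to -0.72). Hes1 had 417 and 455 CPM, a ratio of -0.13 (-0.18 to -0.08), and -0.45 in trunk cells.

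FGF pathway genes were measured because the missing gene is a ligand of these receptors. All 3 ligands of the Fgf9 subfamily were too low to compare in members, with 1.08 CPM in Null and 5.35 CPM in Control summed over them. Of 6 receptors and partners 5 were higher in Null, 3 with an interval above 0, with a median of 0.15. Of all genes compared 62.7% were higher in Null. Fgfr2, whose epithelial form reads mesenchymal FGFs, had 82.1 and 56.7 CPM, a log2 ratio of 0.53 (0.40 to 0.66), and Fgfr3, a main receptor of Fgf9, had 52.0 and 36.7 CPM, a ratio of 0.50 (0.34 to 0.66). Of 8 feedback and target genes that could be compared 5 were lower in Null, 3 with an interval below 0, with a median of -0.16. Etv1, an ETS factor induced by FGF signalling, had 27.2 and 42.1 CPM, a ratio of -0.63 (-0.82 to -0.44), and Ccnd1 had 102 and 151 CPM, a ratio of -0.56 (-0.66 to -0.46). The feedback phosphatase Dusp6 had 12.3 and 14.9 CPM, a ratio of -0.28 (-0.58 to 0.01), whose interval spans 0. Ccnd1 was also lower in all other barcodes, at -0.64, while Etv1 stood there at -0.06.

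Targets and parts of the Hippo pathway, in which Yap1 and the Tead factors drive growth genes, were higher in Null members. All 11 genes compared had a ratio above 0 (Tead2 turned below it with centring on the median gene and after thinning, and Yap1 and Ccn1 with Neurog3 of at least 2 or 10 per 10000), 9 with an interval above 0, and the median was 0.38. Amotl2, a scaffold that binds Yap1 and a target of it, had 281 CPM in Null and 217 CPM in Control members, a log2 ratio of 0.37 (0.30 to 0.44). Ajuba, a LIM-domain scaffold, had 19.9 and 11.6 CPM, a ratio of 0.79 (0.51 to 1.06) that was 0.047 with Neurog3 of at least 10 per 10000, and Tead1 had 149 and 109 CPM, a ratio of 0.45 (0.36 to 0.55). The median was 0.38, 0.37 and 0.40 in the lower, middle and upper tertile, with 10, 10 and 8 of 11 genes above 0, against 58.8%, 59.4% and 58.5% of all genes. It was 0.39 in trunk-gene-rich members, 0.11 in those low for both scores and -0.37 over 9 genes in late-gene-rich members. Trunk cells had a median of 0.32 and all other barcodes 0.04.

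Cell cycle genes were lower in Null members on balance, but not in every part of them. Of 23 S phase genes 21 were lower in Null, 14 with an interval below 0, with a median of -0.13. Of 30 G2/M genes 20 were lower, 13 with an interval below 0, with a median of -0.12. Centring on the median gene turned Mcm4, Ccnb1, Cenpe and Kif20b from above 0 to below it. Pcna, the sliding clamp of replication, had 82.5 CPM in Null and 101 CPM in Control members, a log2 ratio of -0.29 (-0.40 to -0.18), and Fen1 had 22.9 and 35.6 CPM, a ratio of -0.64 (-0.85 to -0.43). Ube2c, which marks mitotic proteins for breakdown, had 201 and 262 CPM, a ratio of -0.38 (-0.45 to -0.31), while Mki67 had 205 and 189 CPM, a ratio of 0.12 (0.04 to 0.19). By tertiles the G2/M median was -0.23 in the lower, 0.52 in the middle and -0.74 in the upper tertile, with 6, 30 and 0 of 30 genes above 0. The tertiles were cut within each library, and the middle one reached down to 4.44 Neurog3 UMIs per 10000 in Null but 8.03 in Control members. The upper tertiles began closer together, covering 23.0 to 58.7 in Null and 22.5 to 69.2 in Control members. Of 30 G2/M genes 27 were lower from tertile to tertile in both libraries. The tertile values are thus not fully matched for Neurog3, and the part of this was not tested. With at least 5 Neurog3 UMIs per cell the G2/M median turned to 0.065. Of 23 S phase genes 15 were higher in Null in the lower tertile, 2 in the middle and 1 in the upper one, with medians of 0.036, -0.36 and -0.53. Of the D-type cyclins and their kinases, Cdk6 had 51.2 and 31.9 CPM, a ratio of 0.69 (0.52 to 0.85) that was 0.059 with Neurog3 of at least 10 per 10000, and the median of the 5 genes was -0.05.

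The share of cells with a UMI of Mki67 or Top2a, after thinning to 3000 UMIs, was 21.3% (18.1 to 24.8) of Null and 30.6% (27.8 to 33.4) of Control members (53.7% and 64.6% unthinned). It lay between the shares of trunk cells, 46.7% and 52.0%, and of Fev-positive cells, 9.75% and 18.3%. Hormone-positive cells, few of which divide at this stage, had 10.2% and 20.6%, at median depths of 27622 and 18913.5 UMIs, so a share of that size is read as background. The upper tertile by Neurog3, at 10.2% and 23.3%, stood within the intervals of that background in both libraries, and the lower tertile, at 35.9% and 44.0%, stood above it. The difference between the libraries within the members is of the size of that in hormone-positive cells. In CPM, Mki67 was higher in the Null members, while Top2a was lower, at a log2 ratio of -0.08. No order between the libraries is therefore read from these shares. The background reading of the upper tertile covers Mki67 and Top2a only. By S phase genes, also after thinning, the upper tertile had 59.4% of Null and 64.6% of Control cells. Hormone-positive cells had 30.2% and 37.1% by that measure, and Fev-positive cells 26.7% and 41.7%.

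**Figure D4:**
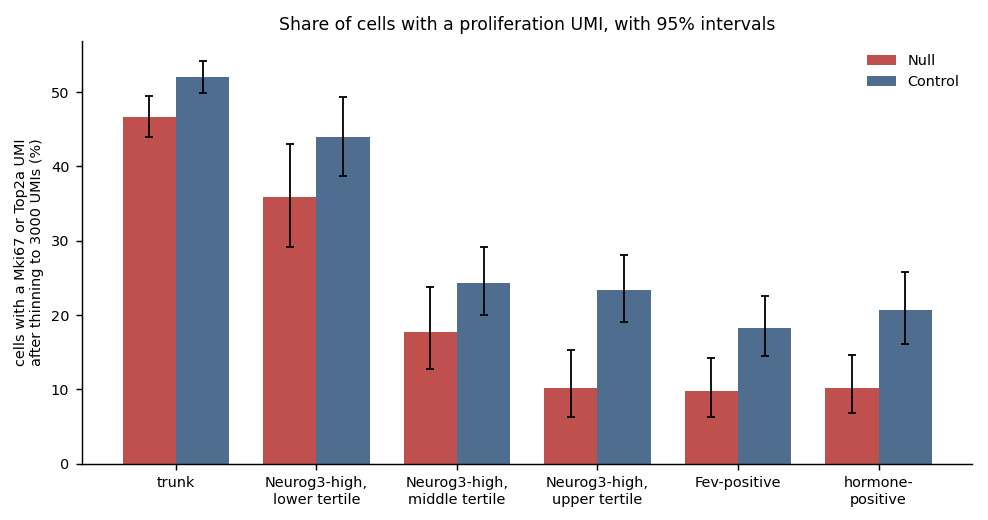
Share of cells with at least 1 Mki67 or Top2a UMI after thinning each cell to 3000 UMIs (bars from 0, with 95% Clopper-Pearson intervals), Null bars left of Control bars, from trunk cells over the tertiles of the Neurog3-high cells to Fev-positive and hormone-positive cells. The share is 10.2% in Null and 23.3% in Control cells of the upper tertile, close to the 10.2% and 20.6% of hormone-positive cells.

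Hormone genes were uneven in the members, and a few cells set one of them. Of the 7 genes compared that the selection did not use, 4 had an interval below 0 and 3 above. Gcg, Ins1 and Ins2 were limited by the selection and stood at 45.1, 40.3 and 116 CPM in Null and 133, 55.2 and 141 CPM in Control members, with Ins1 and Ins2 near-identical copies whose UMIs may be split between them. Ghrl, the ghrelin gene of epsilon cells (GRCm38 chromosome 6, 113716119 to 113719880, minus strand), had 1527 CPM in Null and 730 CPM in Control members, a log2 ratio of 1.06 (1.03 to 1.10). Cells with at least 100 Ghrl UMIs per 10000, 18 of the Null members (3.04%, 1.81 to 4.76) and 22 of the Control members (2.06%, 1.29 to 3.10), held 97.8% and 94.1% of these UMIs. Without them Ghrl stood at 34.7 and 44.3 CPM, a ratio of -0.35, so its direction turned. None of these cells was called a doublet.

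Several genes stood higher in the Ghrl-high members than in the remaining members of both libraries, which were not compared with Ghrl-high cells outside the members. Irs4, an insulin receptor substrate, stood at 988 CPM in the Null and 914 CPM in the Control cells of this kind, against 10.0 and 4.96 CPM in the remaining members. Mboat4, the acyltransferase that activates ghrelin, stood at 418 and 357 CPM against 14.0 and 12.7 CPM. Acsl1, a fatty acid ligase, stood at 814 and 560 CPM against 7.95 and 6.91 CPM. Isl1 stood at 3255 and 2327 CPM against 166 and 132 CPM. Chgb stood apart between the libraries in these cells, at 191 CPM in the Null and 1879 CPM in the Control ones, against 1342 and 1623 CPM in the remaining members. Neurog3 was present at a median of 6.59 and 13.4 per 10000. Irs4, Acsl1 and Mboat4 are outside the naming rule and were chosen after their values were seen.

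Other peptide genes went both ways. Cck had 477 CPM in Null and 673 CPM in Control members, a log2 ratio of -0.50 (-0.54 to -0.45), while Iapp, the amylin gene, had 29.4 and 47.0 CPM, below its level in trunk cells (43.3 and 74.9 CPM), and is read as background. Pyy had 473 and 359 CPM, a ratio of 0.40 (0.35 to 0.45) that turned to -0.92 with Neurog3 of at least 10 per 10000, and in the upper tertile it had 84.4 CPM in Null and 210 CPM in Control members. Ppy had 22.0 and 9.41 CPM, a ratio of 1.23 (0.94 to 1.52), which became -0.04 with Neurog3 of at least 10 per 10000. Of 14 Fev-stage genes 8 had an interval below 0 and 4 above, with a median of -0.10. Chgb, a granin of the secretory granule, had 1310 and 1628 CPM, a ratio of -0.31 (-0.34 to -0.29). Of 18 secretory granule genes 5 had an interval above 0 and 5 below, with a median of -0.02.

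The genes ranked highest in Null over Control were Slc2a2, Serpina1c, Cdh6, Tff3, Cryab, Myl9, Tagln, Ghrl, Tff2 and Dcdc2a. Slc2a2, the glucose transporter of the embryonic epithelium and beta cells (GRCm38 chromosome 3, 28697903 to 28731359, plus strand), had 67.3 CPM in Null and 23.1 CPM in Control members, a log2 ratio of 1.54 (1.37 to 1.72). It stood at 135, 37.4 and 6.63 CPM in the tertiles of Null and 50.2, 6.83 and 2.35 CPM in those of Control members, and was higher in Null trunk cells too, at 1.23. Tff3, a secreted trefoil peptide (GRCm38 chromosome 17, 31125306 to 31129646, minus strand), had 122 and 46.0 CPM, a ratio of 1.40 (1.28 to 1.53). Tff3 followed Neurog3, at 19.8, 124 and 258 CPM in Null tertiles and 7.89, 51.6 and 93.7 CPM in Control tertiles, and its ratio held in each tertile, at 1.33, 1.26 and 1.46. It was 1.73 in trunk-gene-rich members, 1.66 in those low for both scores and 0.53 (0.12 to 0.95) in late-gene-rich ones. In trunk cells its ratio was 1.34 (0.77 to 1.94), at the low levels of 2.30 CPM in Null and 0.909 CPM in Control. It was -0.27 (-0.75 to 0.20) in Fev-positive cells and 0.14 (0.01 to 0.28) in all other barcodes. Tff2, the neighbouring trefoil gene, had 21.4 and 8.67 CPM, a ratio of 1.30 (1.01 to 1.61), and 2.11 in all other barcodes. Serpina1c, one of several near-identical alpha-1-antitrypsin genes among which UMIs may be split, had 66.6 and 23.5 CPM, a ratio of 1.504. Cdh6, a cadherin, had 44.4 and 15.4 CPM, a ratio of 1.53 that was 0.69 with Neurog3 of at least 10 per 10000, and Cryab, a small heat shock protein, had 20.5 and 7.13 CPM, a ratio of 1.52 that was 0.37 under that limit. The contractile genes Myl9 (38.3 and 15.6 CPM) and Tagln (21.8 and 8.55 CPM) had ratios of 1.29 and 1.35, the second of them 0.75 after thinning. In trunk cells the ratios were 1.38 for Cdh6, 1.70 for Cryab, 1.17 for Myl9 and 1.38 for Tagln, while that of Ghrl was -1.13.

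**Figure D5:**
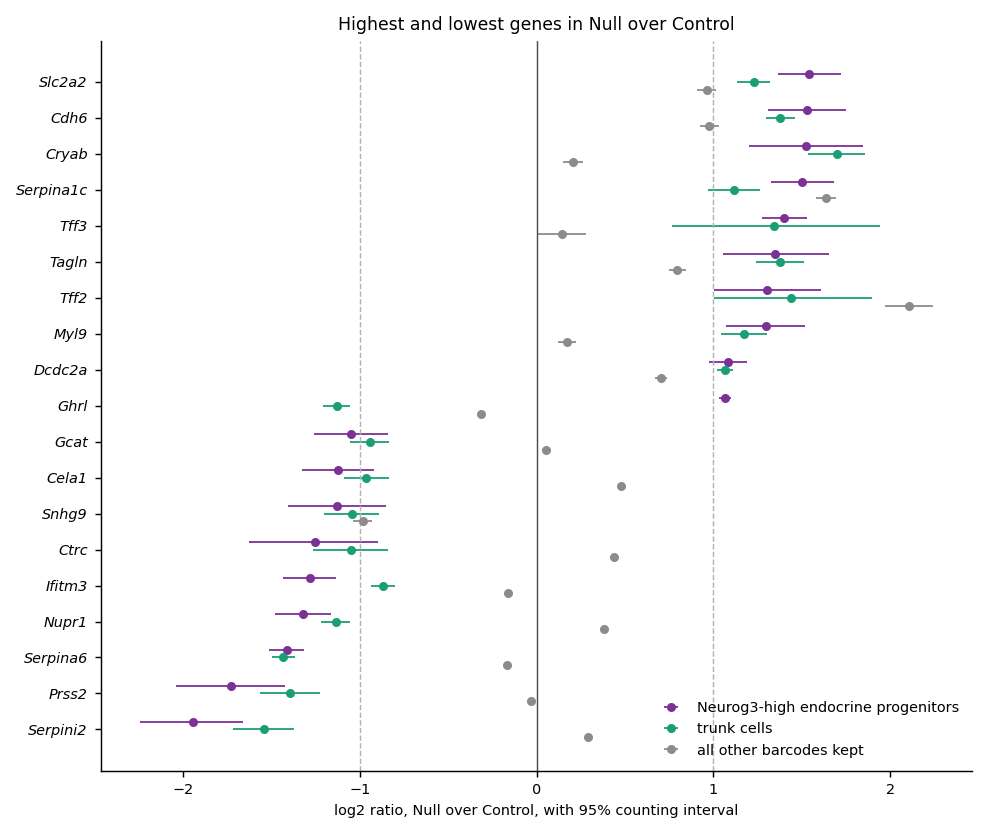
Log2 ratio of Null over Control CPM with 95% counting intervals for the 10 highest and 9 of the lowest ranked genes, in the Neurog3-high endocrine progenitors (upper point of each row), in trunk cells (middle) and in all other barcodes kept (lower). Ghrl is at 1.06 in the progenitors and at -1.13 in trunk cells, and Serpini2, Nupr1, Cela1 and Ctrc lie below 0 in both but above 0 in all other barcodes.

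The genes ranked lowest included Serpini2, Prss2, Serpina6, Nupr1, Ifitm3, Cela1, Ctrc, Snhg9 and Gcat. Serpini2, a pancreatic serpin (GRCm38 chromosome 3, 75242370 to 75270078, minus strand), had 9.20 CPM in Null and 35.4 CPM in Control members, a log2 ratio of -1.95 (-2.24 to -1.66). Prss2, Cela1 and Ctrc encode digestive enzymes made by acinar cells, and Prss2 had 8.58 and 28.4 CPM, a ratio of -1.73 (-2.04 to -1.43), with close trypsinogen copies that may share its UMIs. All 10 acinar enzymes compared were lower in Null members, 8 with an interval below 0, with a median of -0.85, and summed over the list of 18 they stood at 1729 and 2871 CPM. Their median was -0.72 in trunk cells, -0.85 in Fev-positive cells and 0.72 in all other barcodes, which include the acinar cells. The 6 acinar or tip markers were lower in Null in each of the cell types that do not make them, with 1390 and 2165 CPM in mesenchymal, 715 and 1235 CPM in endothelial and 831 and 1316 CPM in leukocyte barcodes. The members' own sums lay between these, so acinar values in members are read as background and not as expression or as a difference. Serpina6, a corticosteroid-binding globulin, had 80.9 and 216 CPM, a ratio of -1.41 (-1.52 to -1.31), and -1.43 in trunk cells but -0.17 in all other barcodes. Ifitm3, an interferon-induced membrane protein, had 36.4 and 88.6 CPM, a ratio of -1.28 (-1.44 to -1.13). Both genes stood higher in all other barcodes, Serpina6 at 840 and 945 CPM and Ifitm3 at 261 and 292 CPM. The part of background in their values was not tested.

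Of 20 immediate early genes, which tissue dissociation can induce, 16 were higher in Null (Junb, Jund, Egr1, Ier2 and Zfp36 turned with centring), 13 with an interval above 0, with a median of 0.12 and Atf3 at 170 CPM in Null and 105 CPM in Control members. Of 14 genes of glycolysis 7 had an interval below 0 and 2 above, with a median of -0.10. Medians were 0.04 for 16 genes of the unfolded protein response, -0.09 for 15 of cholesterol synthesis, 0.11 for 9 BMP and TGF-beta targets, 0.12 for 6 Wnt targets, 0.11 for 3 retinoic acid genes, 0.04 for 15 CDK inhibitors and p53 targets and 0.07 for 14 delamination and cytoskeleton genes. Among the last, Vim, the intermediate filament vimentin, had 608 and 429 CPM, a log2 ratio of 0.50 (0.46 to 0.55), and Cdh1, the epithelial cadherin, had 165 and 125 CPM, a ratio of 0.40 (0.31 to 0.49). Id4, a helix-loop-helix inhibitor, had 53.3 and 33.8 CPM, a ratio of 0.66 (0.50 to 0.82), while Id3 had 36.4 and 49.7 CPM, a ratio of -0.45 (-0.62 to -0.28), which was -1.16 with Neurog3 of at least 10 per 10000. None of the genes compared in these lists passed the 2-fold limit. Among lists of foreign cell types, the 3 mesenchymal genes compared were Col1a1, Col1a2 and Col3a1, which the selection itself limited. All 3 were lower in Null members, with a median of -0.92 that is not read as a difference. The 2 genes compared of neural crest and neurons, Elavl4 and Ret, were both lower with a median of -0.31. In members they stood above trunk cells, with median log2 ratios of 4.15 in Null and 3.93 in Control, so they are not read as foreign RNA. Of the endothelial, mesothelial and tip factor lists 1 gene each could be compared, at -0.37, 0.27 and -0.01. The mesothelial one was Krt19, which is also one of the trunk or ductal genes here. Of the leukocyte and erythroid lists none could be compared, with summed levels of 13.6 and 3.25 CPM in Null and 30.4 and 22.6 CPM in Control members.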

How the data were processed

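Single-cell RNA had been measured by the 10x Genomics droplet assay in 1 pooled Null and 1 pooled Control library, after TrypLE dissociation and a sort of DAPI-negative cells behind a size gate, per the labels' protocols. The deposited files hold raw UMI counts of each gene in each barcode. They were written by Cell Ranger 6.1.1, per the file headers. The submitters' processing notes also list bcl2fastq, Seurat 3.2.3 and mm10. Use of strand in counting: not given in the sources used here. The members, gene lists and comparison groups were chosen with earlier results of these data known.

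Scrublet (scanpy 1.11.5) used its automatic threshold in each library, a score of 0.192 in Null and 0.142 in Control. It marked 3.94% of Null and 9.35% of Control barcodes as doublets, which stayed in. UMIs were summed over the cells of a library and expressed as CPM (Python 3.11.15). Log2 ratios carry the exact conditional 95% interval of a pair of Poisson counts and shares the exact Clopper-Pearson 95% interval. UMIs remove PCR copies, and neither interval holds the variation among embryos or preparations. A ratio with 0 counts on a side used 3 counts there. Genes with a mean CPM of at least 10 were compared. Thinning drew 3000 UMIs per cell. The interval code was tested on simulated counts.

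Trunk, Epcam-positive and Fev-positive barcodes are defined in the text. Hormone-positive barcodes had at least 200 UMIs per 10000 of Gcg, Ins1 and Ins2 and at most 2 Neurog3 UMIs, mesenchymal ones at least 50 per 10000 of the 3 collagens, and endothelial and leukocyte ones at least 5 UMIs of their 3 markers and no Epcam, all set after the data were seen. Named genes were members of 30 lists, the 10 highest and 10 lowest in Null over Control by the interval bound nearest 0, the 15 highest and 10 lowest over trunk cells, and the 10 highest and 10 lowest over Fev-positive cells (mean CPM of at least 50 in the higher population). Genes used in the selection, X-inactivation, Y-linked, haemoglobin and mitochondrially encoded genes and predicted models were left out of these ranks, and a few other genes are not reported here. Of 32285 features, 32158 had their identifier in GENCODE vM21 (GRCm38), the source of coordinates, and of 431 list symbols 1 matched no feature. Alternatives changed the Neurog3 minimum, depth, scaling and the CPM minimum.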

Additional observations from a re-analysis of the deposited data

Results flagged for a closer look

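In 6 of the ranked genes named, the Neurog3-high progenitors and all other barcodes kept differed in the sign of their log2 ratio (Null over Control), a difference that was not tested. Ghrl stood at 1.06 in the progenitors and -0.31 in the other barcodes, and 18 Null and 22 Control cells held nearly all of its UMIs in the progenitors. Serpini2 stood at -1.95 and 0.29, Nupr1 at -1.32 and 0.38, Cela1 at -1.12 and 0.48, and Ctrc at -1.26 (-1.87 after thinning) and 0.44. The acinar cells lie among the other barcodes, and the acinar marker sum in mesenchymal barcodes was lower in Null too (1390 and 2165 CPM); its part in these values was not tested. Gcat, an enzyme of threonine breakdown, stood at -1.05 and 0.05.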

How the results depend on the processing

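With 1 library in each group no value has a replicate check, and sex, pooling and preparation cannot be told apart from genotype. No paired analysis was possible because each group has 1 library. Median depths of 20474 UMIs in Null and 13989.5 in Control members leave genes under 10 CPM uncompared. The medians of the trunk and Hippo lists kept their sign in every alternative run, within 0.17 to 0.38 and 0.28 to 0.44, while that of the commitment list ran from -0.09 to 0.12. Of 304 genes named or listed, 111 changed sign under at least 1 alternative, among them 3 past 2-fold (Ghrl, Ppy and Scg2). The cause of the following changes was not tested.

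With Neurog3 of at least 2 per 10000, 18 genes were higher past 2-fold, the medians were 0.12 for commitment, -0.014 for Fev-stage and 0.13 for delamination genes, and the shares were 8.11% and 10.0%. With at least 10 per 10000, added after the data were seen, 15 genes were higher and 40 lower, and the medians were 0.11 for commitment, 0.17 for trunk, -0.18 for secretory, 0.14 for delamination and -0.44 for S phase genes. The D-cyclin median reversed to 0.020 and Ppy to -0.043, and the shares were 5.20% and 6.82% (ratio 0.763). After thinning, 78 genes were higher and 34 lower, with medians of 0.094 for secretory, 0.13 for delamination and -0.094 for CDK inhibitor genes, and a D-cyclin median reversed to 0.025. A minimum of 5 CPM gave 48 higher and 34 lower, 25 CPM gave 9 and 10, and no minimum gave 2120 and 1538, with a retinoic acid median of -0.17. Without the Ghrl-high cells, added after the data were seen, Ghrl reversed to -0.35 and Scg2 to -0.055, and the Fev-stage median was -0.19. Centring on the median gene put the D-cyclin median at -0.12. With at least 5 Neurog3 UMIs the G2/M median was 0.065, the shares 8.23% and 9.21% and the Control cycling share 27.7%, and with 2 UMIs the shares were 11.7% and 13.0%. With 1 Neurog3 UMI after thinning the Null share was 9.19%, and of all barcodes kept the shares were 7.65% and 7.45%. The cycling shares were 53.7% and 64.6% unthinned and 13.5% and 15.0% with at least 2 UMIs.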
